A study of Mus musculus with 36 samples.

Results

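The muscle transcriptomes of mice on a normal-fat and on a high-fat diet were compared without running, in the 2 sedentary groups, which are 12 of the 36 mice sequenced and were chosen by their diet and treatment labels. The labels give all 12 as wild-type C57BL/6 and name 6 mice NFD-C, on the diet NFD, and 6 mice HFD-C, on the diet HFD. The study's methods describe the HFD-C mice as males that arrived at 3 to 4 weeks of age, were sedentary and ate for 12 weeks a diet with soybean oil as 45% of energy. They do not describe the NFD-C group. Their other diet is AIN93G, with less soybean oil (16% of energy) and more starch, and NFD was taken to be that diet, while the age, sex, time on diet and housing of the NFD-C mice are not given in the sources used here. Hence diet and any other difference between the groups cannot be told apart. The other 24 mice ate the high-fat diet and ran, and they enter only where levels across all 6 groups are given. RNA of gastrocnemius muscle was sequenced after poly(A) selection, with 1 library per mouse.

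Muscle takes up fatty acids from lipoproteins and from the circulation, and burns them in mitochondria through beta-oxidation. When fat is plentiful, fatty acids activate the nuclear receptors PPARα and PPARδ, whose targets include the genes for fatty acid transport, oxidation and mitochondrial uncoupling, while insulin drives the lipogenic factor SREBP1 and glucose uptake through GLUT4. The gastrocnemius is mostly made of fast glycolytic 2B fibres, with a deep region that holds more slow and fast oxidative fibres, and oxidative fibres are rich in the genes of fat oxidation on any diet.

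Between 12984834 and 27846838 counts per library fell on genes with a symbol. Muscle fibre genes dominated all 12 libraries, and Myh4, the myosin of 2B fibres, stood between 30761 and 62274 CPM, which are counts scaled to the size of the library. Features linked to ribosomal RNA (rRNA) held 2.99 ± 0.679% of the counts in NFD-C and 2.06 ± 1.25% in HFD-C (SD, n = 6 each, two-sided exact permutation test, p = 0.145). HFD-C mice 5 and 6 stood apart with 0.553 and 0.628%, against 2.02 to 3.83% in the other 10. Mitochondrial genes held 13.6 ± 2.43% in NFD-C and 16.1 ± 3.397% in HFD-C (exact permutation test, p = 0.184). The libraries did not sort by diet, since only 5 of 12 had a mouse of the same diet as their closest library, and the median correlation of log2 CPM was 0.960 within a diet and 0.958 between diets.

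No gene separated the diets after adjustment for the number of genes tested. With the quasi-likelihood test of edgeR, 0 of 12139 genes passed an adjusted p of 0.05 (0.0% called), and the smallest adjusted p was 0.784. At an unadjusted p of at most 0.05, a limit the study used with DESeq2 for its gene counts and enrichment, though not for its strictest lists, 499 genes were called (4.11%), of which 259 were higher (2.13%) and 240 lower (1.98%) in HFD-C. A uniform spread of p-values would put 607 genes there. The count depended on the setting, at 374 to 774 with 1 mouse left out (lowest without NFD-C mouse 6, highest without NFD-C mouse 1), 630 without the mice numbered 1, 847 with mouse number as a replicate block and 858 with a term for the rRNA-linked share, so that it lay above 607 in several of them. In what follows, "higher" and "lower" at the unadjusted limit describe these 12 mice, and no gene passed the adjusted test of edgeR without further terms. At p of at most 0.01 there were 102 genes where 121.4 would fall, and at 0.001 there were 12 where 12.14 would. Only 75 genes (0.618%) combined an unadjusted p of at most 0.05 with a 2-fold difference, and in 29 genes (0.239%) all values of one diet lay above all values of the other, with 15 higher (0.124%) and 14 lower (0.115%) in HFD-C.

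**Figure D1:**
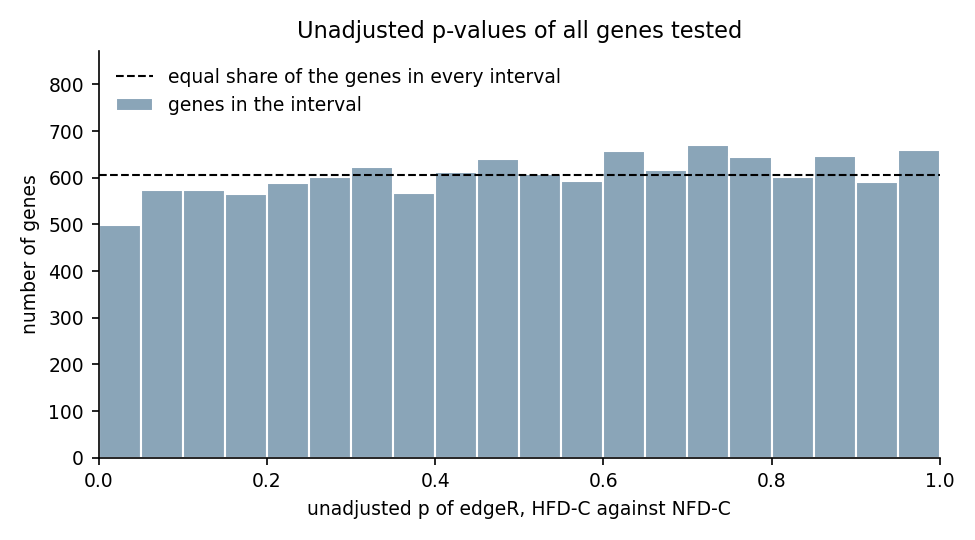
Number of genes (vertical axis) by unadjusted p of edgeR, HFD-C against NFD-C, in 20 intervals of 0.05 (horizontal axis), with a dashed line at an equal share of the 12139 genes. The first interval holds 499 genes and is the lowest of all 20, below the line at 607. Under other settings the count at this limit was above the line, such as 774 without NFD-C mouse 1 and 847 with mouse number as a replicate block.

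The 95% interval of the log2 fold change, given throughout as HFD-C over NFD-C, lay wholly within 2-fold in either direction for 10641 genes (87.7%) and wholly within 1.5-fold for 7310 genes (60.2%). The fold changes themselves were small, with 90% of genes between -0.39 and 0.39 on the log2 scale. Another tool, DESeq2, called 2 genes on the same table, Lamc3 (adjusted p = 0.00492) and Ndufa12-ps (adjusted p = 0.0297), both lower in HFD-C.

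Lamc3, which codes for the laminin γ3 chain of basement membranes, had the smallest p of all genes (chromosome 2, 31777293 to 31839095, plus strand, GRCm39). Its CPM ran from 2.27 over a median of 4.64 to 6.495 in NFD-C and from 0.884 over 1.43 to 2.65 in HFD-C. Hence 5 of 6 HFD-C mice lay below every NFD-C mouse, and the log2 fold change was -1.57 (95% interval -2.22 to -0.92, edgeR, adjusted p = 0.784). The difference kept its direction with any single mouse left out, from -1.80 to -1.45. In all 4 running groups, which ate the same high-fat diet, the mean of Lamc3 was between 1.27 and 2.13 CPM, beside 1.54 ± 0.629 in HFD-C and 4.59 ± 1.42 in NFD-C on the scale of all 36 libraries. These levels were not tested, since all such comparisons share the NFD-C mice, and the rRNA-linked share of the running libraries was 0.405 to 1.02%.

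Cish, an inhibitor of cytokine signalling that is induced by STAT5, showed the largest difference among the genes with a p under 0.001 (chromosome 9, 107173858 to 107179983, plus strand). It was at 34.5 to 102 CPM (median 66.9) in NFD-C and at 5.51 to 40.9 CPM (median 19.1) in HFD-C. The groups overlapped through a single mouse, HFD-C mouse 6, and the log2 fold change was -1.86 (-2.70 to -1.01, edgeR, adjusted p = 0.784). Socs2, another STAT5-induced inhibitor of the same family, had a log2 fold change of -0.50 (-1.07 to 0.07), from 16.8 ± 7.19 to 11.8 ± 3.29 CPM. Over the running groups the mean of Cish varied between 20.1 CPM in HFD-75% and 46.0 CPM in HFD-25%, so HFD-75% was near HFD-C (19.2 ± 12.7) and the other running groups lay between both sedentary ones.

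The interferon-induced genes Oasl2 and Ifit1 were both at a low level and both lower in every HFD-C mouse than in any NFD-C mouse. Oasl2 was at 2.43 to 3.98 CPM (median 2.91) in NFD-C and at 1.09 to 2.18 CPM (median 1.22) in HFD-C, a log2 fold change of -1.17 (-1.71 to -0.62). Ifit1 was at 2.65 to 3.67 CPM (median 3.32) in NFD-C and at 1.04 to 2.36 CPM (median 1.31) in HFD-C, a log2 fold change of -1.05 (-1.61 to -0.48). Of 36 interferon response genes tested, 0 were higher and 3 lower at an unadjusted p of 0.05, the third being Iigp1 (-0.59), and the median of the list was -0.09. That is 8.33% of the list, beside 4.11% of all genes, and 2 of the 36 did not overlap between diets, beside 0.239% of all genes.

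Further lower genes with the smallest p had other functions. The homeobox factor Zfhx3 did not overlap between diets, at 23.0 to 32.6 CPM in NFD-C and 11.6 to 22.6 CPM in HFD-C (log2 fold change -0.65), and its mean in the 4 running groups was 11.9 to 12.2 CPM. Kcnf1, a potassium channel subunit, was at 31.8 ± 15.4 CPM in NFD-C and 10.2 ± 6.12 CPM in HFD-C (-1.64), with a mean of 22.2 to 29.7 CPM across the running groups. The predicted gene Gm13012 had a log2 fold change of -1.74 and Tmem267 of -1.10, and a pseudogene of this set is described below.

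On the higher side, the gene with the smallest p was Sh3rf2, a protein with SH3 domains and a RING finger. It was at 9.83 to 14.6 CPM (median 11.6) in NFD-C and at 15.4 to 26.9 CPM (median 19.0) in HFD-C, with no overlap and a log2 fold change of 0.72 (0.39 to 1.06, edgeR, adjusted p = 0.784). Slc25a23, a calcium-regulated carrier that exchanges ATP-Mg for phosphate across the inner mitochondrial membrane, was at 15.0 to 19.1 CPM in NFD-C and 18.3 to 27.2 CPM in HFD-C (0.50, 0.26 to 0.74). Only HFD-C mouse 5 lay inside the NFD-C range of that gene.

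Tagln2, an actin-binding protein, was at 9.63 to 12.2 CPM in NFD-C and 12.8 to 17.96 CPM in HFD-C (log2 fold change 0.48). Dusp14, a phosphatase of MAP kinases, was at 4.43 to 7.11 against 7.52 to 10.9 CPM (0.64), and its mean in the running groups was 4.91 to 5.59 CPM. Neither gene overlapped between diets. Lmod1, a leiomodin of smooth muscle, was at 3.23 ± 1.33 against 7.95 ± 4.48 CPM (1.3), and HFD-C mouse 6 alone stood at 16.4 CPM. Foxo6, a forkhead transcription factor, was at 2.29 to 6.35 CPM in NFD-C and 3.69 to 13.9 CPM in HFD-C (1.07, 0.43 to 1.71). The zinc finger gene Zfp385b (1.52) and the predicted genes Gm33770 (1.19) and Gm30140 (1.79) were at most 7.88 CPM in any mouse.

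**Figure D2:**
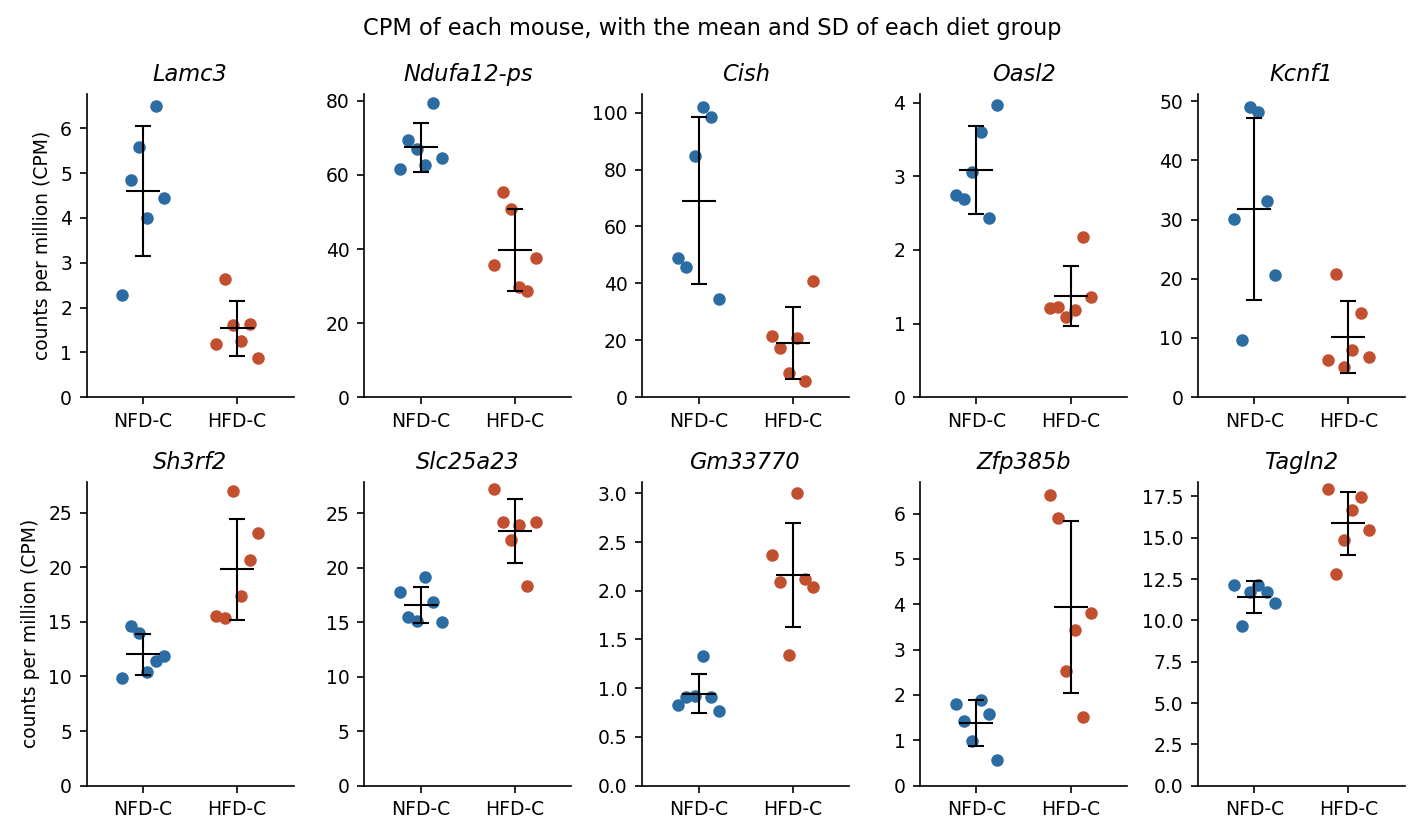
CPM (vertical axes, from 0) of 5 genes each among the 10 with the smallest p that were lower (top row) and higher (bottom row) in HFD-C, with 1 point per mouse, 6 mice per diet, and bars for the mean ± SD. The diets do not overlap for Ndufa12-ps, Oasl2, Sh3rf2, Gm33770 and Tagln2, and overlap through at least 1 mouse for Lamc3, Cish, Kcnf1, Slc25a23 and Zfp385b.

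Ndufa12-ps, the pseudogene among the lower genes, and Rpl41, which was among the 10 higher genes with the smallest p, each share nearly all of their sequence with another gene, and their values are uncertain for that reason. Ndufa12-ps (chromosome 5, 130217234 to 130217729) is a processed pseudogene of Ndufa12 (chromosome 10, 94034897 to 94057302), a subunit of respiratory complex I. In the GENCODE M21 transcripts, all 402 bases of the pseudogene aligned to the parent transcript with 400 identical bases (99.5%). Gm10076 (chromosome 14, 105919260 to 105919653) is likewise a copy of Rpl41 (chromosome 10, 128383979 to 128385037), a protein of the large ribosomal subunit, and 381 of 383 aligned bases were identical (99.5%). The 2 differences of each pair are shown in capitals below, since reads that do not cover them can be assigned to either gene. The substitutions A99G and T378C (Ndufa12 base first, position counted from 1 at the 5′ end of the pseudogene transcript) separate the first pair, and C127T and G234A (Rpl41 base first, counted in Gm10076) the second.
Ndufa12 at A99G: acaaatatggAaataaatact
Ndufa12-ps at A99G: acaaatatggGaataaatact
Ndufa12 at T378C: atgaatgggtTccaccttcga
Ndufa12-ps at T378C: atgaatgggtCccaccttcga
Rpl41 at C127T: taagccagccCgtgcacctac
Gm10076 at C127T: taagccagccTgtgcacctac
Rpl41 at G234A: gacctggaacGtcacctcgcc
Gm10076 at G234A: gacctggaacAtcacctcgcc

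Within each pair, the copy and the gene had log2 fold changes of opposite sign. Ndufa12-ps was at 61.6 to 79.5 CPM in NFD-C and 28.7 to 55.5 CPM in HFD-C (log2 fold change -0.76), while Ndufa12 was at 64.1 to 116 CPM and 71.4 to 225 CPM (0.84, 0.30 to 1.39). The pseudogene held 35.8 to 49.0% of the summed CPM of both in NFD-C and 11.3 to 43.8% in HFD-C, and the sum itself had a median of 155 CPM in NFD-C and 198 CPM in HFD-C. Gm10076 held 33.1 to 47.3% of its sum with Rpl41 in NFD-C. In HFD-C it held 2.36 to 12.4% in mice 1 to 5 and 58.3% in mouse 6. Rpl41 had a log2 fold change of 0.88 (0.40 to 1.35), and Gm10076 of -0.74 with all mice and -1.76 without HFD-C mice 5 and 6 (edgeR, adjusted p = 0.0970). In all 4 running groups the mean of Gm10076 was 22.4 to 50.4 CPM, with mice from 2.96 to 95.5 CPM, beside 61.6 to 81.5 CPM in NFD-C on the same scale. Whether the split reflects expression or read assignment was not tested.

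Most genes of fat oxidation had a value above 0. Of 30 genes of mitochondrial and peroxisomal beta-oxidation, 5 were higher and 1 lower at an unadjusted p of 0.05 (20%, where 4.11% of all genes were called), 26 had a log2 fold change above 0, and the median was 0.32 beside -0.00038 over all genes. The 5 higher genes were Acadl, the long-chain acyl-CoA dehydrogenase (0.57), Acaa2, a thiolase (0.62), the auxiliary enzymes Eci1 (0.41) and Decr1 (0.46), and Etfb, which passes electrons on from the dehydrogenases (0.46). Acadvl, among the most abundant members, had a log2 fold change of 0.45 (-0.05 to 0.95).

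Cpt1a, which codes for an enzyme that admits fatty acids to the mitochondrion, was the lower one. It was at 14.8 to 17.3 CPM in NFD-C and at 7.41 to 16.1 CPM in HFD-C, with a log2 fold change of -0.39 (-0.73 to -0.05). In the same list Cpt1b was at 0.38, Cpt2 at 0.32 and Slc25a20 at 0.29, none of them at the unadjusted limit. Fabp3, the fatty acid binding protein of heart and muscle, was at 178 to 691 CPM (median 276) in NFD-C and at 302 to 1300 CPM (median 943) in HFD-C, with HFD-C mice 3 and 5 inside the NFD-C range and the other 4 above it. Its log2 fold change was 1.23 (0.35 to 2.10, edgeR, adjusted p of 1).

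Targets of PPARs did not share one direction. Of 24 tested, 3 were higher (Fabp3, Acadl and Acaa2) and 2 lower (Ucp3 and Cpt1a) at the unadjusted limit (20.8%, beside 4.11% of all genes), and the median was 0.18. Ucp3, the uncoupling protein of muscle mitochondria, was at 283 to 529 CPM (median 449) in NFD-C and at 175 to 391 CPM (median 279) in HFD-C, a log2 fold change of -0.58 (-0.99 to -0.18). Across the running groups its mean lay between 333 and 487 CPM, beside 439 ± 85.6 in NFD-C and 294 ± 80.5 in HFD-C. Pdk4, the kinase that shuts off pyruvate dehydrogenase and a known PPAR target, was at 933 to 2053 CPM in NFD-C and 624 to 1858 CPM in HFD-C (-0.32, -0.83 to 0.20). Angptl4, a lipase inhibitor induced by fatty acids, was at 3.70 to 13.2 against 2.97 to 13.4 CPM (-0.24, -1.08 to 0.59), and the lipid droplet coat Plin2 at 17.3 to 27.0 against 18.6 to 38.1 CPM (0.34, -0.03 to 0.71).

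Uptake, storage and synthesis of fat were mixed. The fatty acid transporter Cd36 had a log2 fold change of 0.23 (-0.41 to 0.86) and lipoprotein lipase, Lpl, of 0.69 (-0.19 to 1.58). G0s2, an inhibitor of the lipase ATGL, was higher at the unadjusted limit (0.71), while the acyl-CoA synthetase Acsl3 (-0.62) and the phosphatidate phosphatase Lpin1 (-0.41) were lower, so that 2 members were higher and 2 lower of 22 tested in this list (18.2%, beside 4.11% of all genes). In the lipogenic list 0 of 23 members were higher and 2 lower (8.70%). They were Srebf1, which codes for SREBP1 (46.0 to 74.6 against 37.5 to 56.6 CPM, -0.34), and its target Thrsp (14.9 to 25.2 against 7.66 to 19.2 CPM, -0.53). Fasn, fatty acid synthase, had a log2 fold change of -0.26 (-0.69 to 0.16) and Acacb, an acetyl-CoA carboxylase, of -0.09. Scd1, a desaturase, ran from 5.40 to 101 CPM within NFD-C alone (-0.68, -2.08 to 0.71). Of 25 cholesterol synthesis genes, 1 was higher (Mvd, 0.64) and 0 lower (4.0%, near the 4.11% of all genes).

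No gene of 36 in glucose use reached the unadjusted limit, and the median of that list was -0.08. Slc2a4, the gene of GLUT4, was at 492 to 650 CPM in NFD-C and 511 to 604 CPM in HFD-C, with a log2 fold change of 0.00 and an interval (-0.22 to 0.22) within 1.5-fold in either direction. Pygm, the glycogen phosphorylase of muscle, had a log2 fold change of -0.22 (-0.53 to 0.09), the glycolytic enzyme Aldoa of -0.08 (-0.51 to 0.35) and the glycogen branching enzyme Gbe1 of 0.51 (-0.02 to 1.03). Among 32 genes of insulin signalling 1 reached the unadjusted limit (3.1%, beside 4.11% of all genes). It was Irs1, a docking protein of the insulin receptor (44.2 to 98.8 against 40.2 to 64.7 CPM, -0.40). Akt2, the kinase downstream of it, had a log2 fold change of -0.09 (-0.31 to 0.14).

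**Figure D3:**
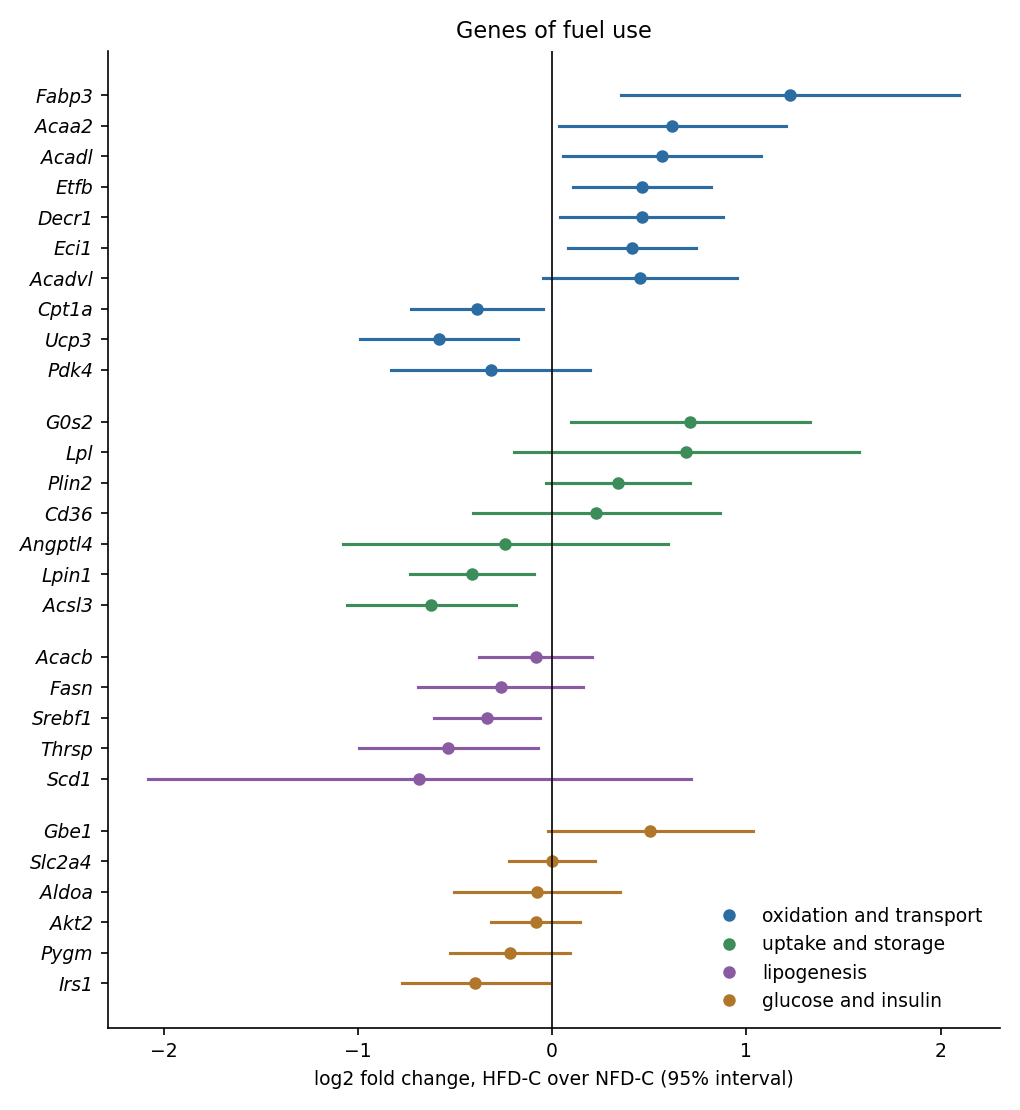
Log2 fold change of HFD-C over NFD-C (horizontal axis, point) with its 95% interval (line) for genes of fat oxidation and transport, uptake and storage, lipogenesis, and glucose and insulin. Fabp3 at 1.23 and Acadl at 0.57 lie above 0, Ucp3 at -0.58 and Srebf1 at -0.34 below it, and Slc2a4 has an interval from -0.22 to 0.22.

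The genes of slow fibres varied widely between mice of the same diet. Their summed CPM was 488 to 6295 in NFD-C (median 1659.8) and 1413 to 7894 in HFD-C (median 5122), and the mice at 4196 CPM or more were NFD-C mouse 1 and HFD-C mice 1, 2, 4 and 6. All 14 members had a log2 fold change above 0, with a median of 1.19, yet 0 passed the unadjusted limit. Myh7, the slow myosin, was at 0 CPM in NFD-C mice 2 and 6, 415 CPM in NFD-C mouse 1 and 0.310 to 519 CPM in HFD-C (1.20, -1.96 to 4.36). Without the mice numbered 1 its log2 fold change was 4.01, that of Myl2 2.50 and that of Myh2 1.99. Myl2, its light chain, had a log2 fold change of 1.67 (-0.17 to 3.52) and myoglobin, Mb, of 0.96 (-0.02 to 1.94). The myosins of the fast oxidative fibres were highest in the same mice, with Myh2 at 1.23 (-0.21 to 2.68) and Myh1 at 0.87 (-0.19 to 1.93), and Myh4 was at -0.24 (-0.64 to 0.15).

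Genes of fat oxidation were high in the same mice on both diets, which in NFD-C was mouse 1 alone. In the mouse with the lowest slow fibre sum, NFD-C mouse 6 at 488 CPM, Fabp3 was at 178 and Acadl at 142 CPM. In the highest, HFD-C mouse 4 at 7894 CPM, they were at 1283 and 401 CPM, and in NFD-C mouse 1 with 6295 CPM they were at 691 and 297 CPM. With the mean log2 CPM of the slow fibre genes as a covariate, a setting chosen after seeing the data, the log2 fold change of Fabp3 was 0.31 in place of 1.23, that of Acadl 0.07 in place of 0.57, and the median of the beta-oxidation list 0.0033 in place of 0.32 with 0 of 30 members at the unadjusted limit. The medians of the PPAR targets (-0.11 in place of 0.18) and of the uptake list (-0.11 in place of 0.15) changed sign, each with 2 members at that limit. In the same fit Ucp3 was at -0.57, Cpt1a at -0.36, Thrsp at -0.41 and Cish at -2.63 (edgeR, adjusted p = 0.20). In another fit, without HFD-C mice 5 and 6 and without the covariate, the median of the beta-oxidation list was 0.38, with 8 members at the unadjusted limit. There the PPAR targets had a median of 0.28 with 6 members at that limit, and the uptake list 0.21 with 5. In whole muscle, fewer cells of a type and less RNA per cell cannot be told apart, and the part of the fibre genes in the values of fat oxidation was not tested.

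**Figure D4:**
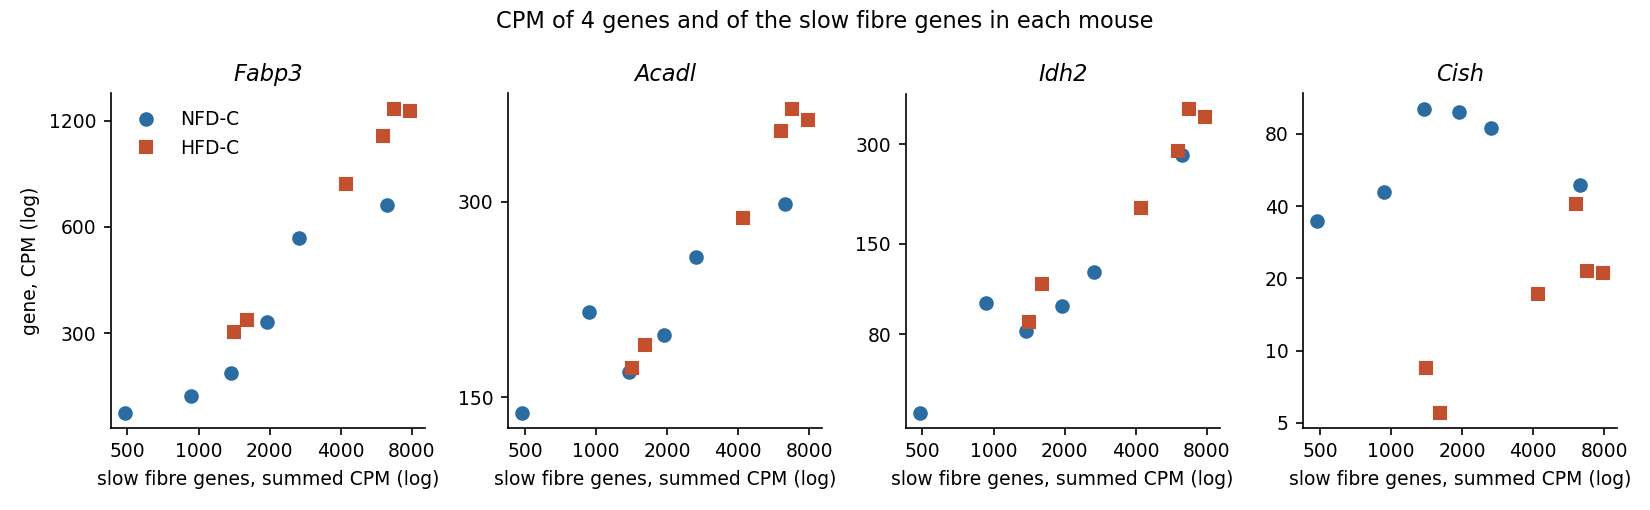
CPM of Fabp3, Acadl, Idh2 and Cish (vertical log axes) against the summed CPM of the slow fibre genes (horizontal log axis) in each mouse, blue circles for NFD-C and red squares for HFD-C. Fabp3, Acadl and Idh2 are high in the mice with a high slow fibre sum on both diets, which in NFD-C is mouse 1 alone. Cish is at or below 40.9 CPM in HFD-C along the whole range.

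Most mitochondrial genes also had values above 0. The citrate cycle had 18 of 18 members above 0 and a median of 0.16, but only 1 reached the unadjusted limit (5.56%). It was Idh2, the mitochondrial isocitrate dehydrogenase (46.5 to 278 against 87.3 to 384 CPM, 0.97). Mdh2, malate dehydrogenase, had a log2 fold change of 0.19 (-0.06 to 0.45). Of 41 nuclear subunits of complexes II to V all 41 were above 0, with a median of 0.23, and 0 passed the unadjusted limit. Atp5b, the ATP synthase β subunit, was at 0.16 (-0.13 to 0.44). Among 37 complex I subunits, 3 were higher at that limit (8.11%, beside 4.11% of all genes). These were Ndufa8, Ndufa12 and Ndufb3, and each was highest in HFD-C mouse 5 or 6. Without those mice Ndufa8 was at 0.15, Ndufa12 at 0.50 and the median of the list at 0.07 in place of 0.21. Members of 1 complex share their source in each mouse and are not replicates. With the slow fibre covariate the medians were 0.09 for complexes II to V, 0.11 for complex I and -0.016 for the citrate cycle, and Idh2 was at 0.10 in place of 0.97, with 0 of 18 citrate cycle members at the unadjusted limit.

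The 13 genes of mitochondrial DNA had a median of 0.26 (0.02 with the slow fibre covariate) and 1 called gene in each direction (15.4%, beside 4.11% of all genes). ND4L was higher at the unadjusted limit (10.2 to 48.0 against 20.5 to 201 CPM, 1.70) and ND3 lower (10.1 to 136 against 9.67 to 28.8 CPM, -1.42), and both are subunits of complex I. On the scale of all 36 libraries, ND3 had medians of 20.7 CPM in NFD-C and 17.0 CPM in HFD-C. Its mean in NFD-C was 50.2 ± 54.2 CPM. The ND4L gene overlaps that of ND4, so its count is uncertain. COX1, the most abundant of them, was at 33805 to 57543 CPM in NFD-C and 40048 to 80009 CPM in HFD-C (0.31, -0.15 to 0.76). Under an alternative with the rRNA-linked share as a term, ND4L was the only gene to pass an adjusted p of 0.05 (2.29, edgeR, adjusted p = 0.0166). Among regulators of oxidative genes, 0 of 21 were higher and 2 lower at the unadjusted limit (9.52%, beside 4.11% of all genes), Lpin1 and Pprc1 (-0.22). Of 16 mitochondrial carriers tested, Slc25a33 was higher (0.40) and Ucp3 lower at that limit (12.5%). The carrier Slc25a23, described above as higher in HFD-C, is not in this list.

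**Figure D5:**
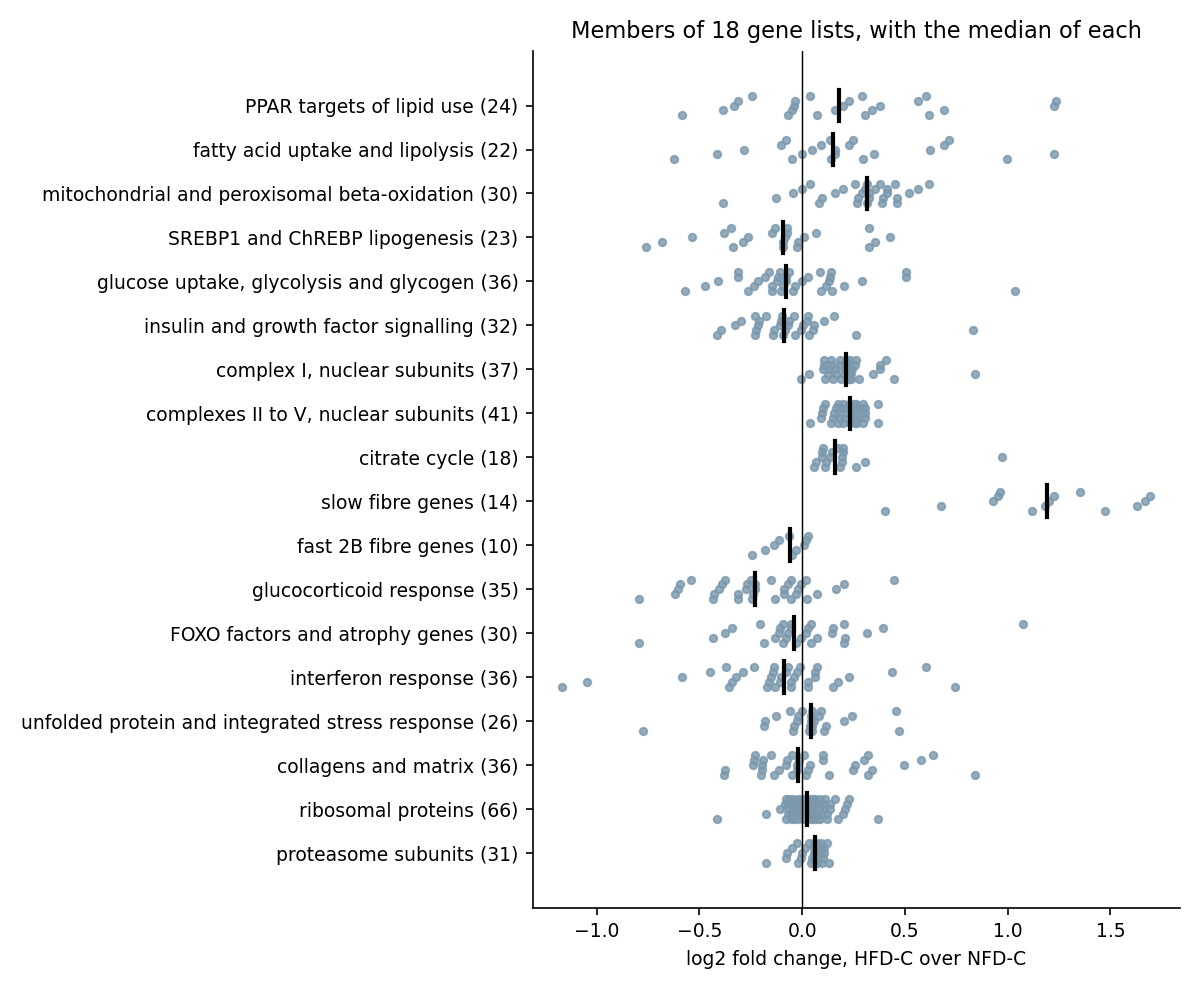
Log2 fold change of HFD-C over NFD-C (horizontal axis) of every tested member (points) of 18 gene lists (rows, number of members in brackets), with the median of each list as a black bar. The slow fibre genes have the highest median at 1.19, the glucocorticoid response the lowest at -0.23, and the other medians lie between -0.09 and 0.32.

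Genes of the glucocorticoid response mostly had values below 0. Of 35 genes listed for the glucocorticoid response, 1 was higher and 5 lower at an unadjusted p of 0.05 (17.1%, beside 4.11% of all genes). Of the 35, 29 were below 0 and the median was -0.23. The list was made with earlier results of these data known. It holds Fkbp5, Pik3r1, Sesn1, Foxo1 and Xdh, which the study chose by comparing running mice with HFD-C, so its direction is not independent of the HFD-C mice. The lower genes were the polyamine enzymes Smox (398 to 798 against 246 to 505 CPM, -0.62) and Odc1 (-0.43), the transcription factors Zbtb16 (118 to 201 against 53.4 to 153 CPM, -0.59) and Foxo1, and Trim63. Amd1, which supplies polyamine synthesis and is among the most abundant members, had a log2 fold change of -0.60 (-1.21 to 0.00). Fkbp5, a direct target of the glucocorticoid receptor, was at 30.8 to 114 CPM in NFD-C and 23.6 to 121 CPM in HFD-C (-0.27, -1.07 to 0.52). Its log2 fold change was -0.0018 without the mice numbered 1. Arid5b was the higher one (0.45).

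Trim63 and Fbxo32 code for the ubiquitin ligases MuRF1 and atrogin-1 of muscle wasting. Trim63 was at 378 to 699 CPM in NFD-C and 287 to 477 CPM in HFD-C (-0.43, -0.75 to -0.11), and Fbxo32 at 358 to 910 against 420 to 551 CPM (-0.37, -0.78 to 0.04). Foxo1, the factor that drives both, was at 23.1 to 107 CPM (median 52.8) in NFD-C and at 12.5 to 48.5 CPM (median 35.97) in HFD-C (-0.80, -1.55 to -0.04). The highest NFD-C value was that of mouse 1. Without the mice numbered 1 the log2 fold change was -0.42. Its mean in the running groups was 44.4 to 83.9 CPM. Over all 30 genes of this list, 1 was higher (Foxo6) and 2 lower (Foxo1 and Trim63), which is 10% beside 4.11% of all genes, with a median of -0.04.

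The stress response to unfolded proteins gave 1 gene in each direction among 26 (7.69%, beside 4.11% of all genes). Ddit3, the factor CHOP, was at 9.63 to 16.04 CPM in NFD-C and 16.3 to 22.4 CPM in HFD-C without overlap (0.46, 0.17 to 0.74). Chac1, a glutathione-degrading enzyme that lies downstream of CHOP and ATF4, was at 83.9 to 242 against 64.2 to 140 CPM and went the other way (-0.78, -1.28 to -0.27). Of 27 immediate early genes, Egr1 was lower (-1.01) and Ccn2 higher (0.49), which is 7.41%. Of 26 heat shock genes 1 was higher (3.85%), the small chaperone Cryab (383 to 707 against 439 to 1286 CPM, 0.66). Of 29 antioxidant genes 1 was higher (3.45%), extracellular superoxide dismutase Sod3 (0.51). Both shares were below the 4.11% of all genes. The clock gene Bmal1, listed as Arntl, was at 9.27 to 17.4 against 4.86 to 11.2 CPM (-0.53), and 0 of 13 genes of the opposite clock phase reached the unadjusted limit.

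Of 36 collagen and matrix genes, 3 were higher at the unadjusted limit (8.33%, beside 4.11% of all genes), Col14a1 (0.84), the proteoglycan Bgn (0.64) and Postn (0.58), and the median of the list was -0.02. The laminin gene Lamc3, described above as lower in HFD-C, is not in this list. Angptl2 (0.34) and Postn were the higher ones of 18 secreted factors (11.1%). Of 21 genes of denervation, the nerve junction and myogenesis, 3 reached the limit (14.3%), of which the junction gene Dok7 (-0.55) and the histone deacetylase Hdac4 (-0.34) were lower and the embryonic myosin Myh3 (1.82) was higher. Of 29 genes of amino acid breakdown, Gpt (0.50) and Mccc2 (0.32) were higher (6.90%) and 0 were called with the slow fibre covariate. Of 66 ribosomal proteins in the list 1 reached the limit (1.5%), Rpl30, which was lower (-0.41). Rpl41, described above among the higher genes with the smallest p, is not in that list. No proteasome gene of 31 and no calcium handling gene of 24 reached the limit.

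Of the markers of all cell types, Cd68, a macrophage protein, was the only one at the unadjusted limit (0.685 to 2.75 against 1.64 to 4.50 CPM, 0.83). It is 1 of 9 immune markers tested (11.1%, beside 4.11% of all genes), whose median was 0.13. Of these, 7 were above 0 and 2 below, Ptprc (-0.54) and Ccr2 (-0.14). The summed immune markers were at 43.3 to 90.4 CPM in NFD-C and 59.8 to 102.5 CPM in HFD-C. Adipoq, the fat cell hormone, ran from 0.183 to 7.27 CPM in NFD-C and from 0.414 to 19.2 CPM in HFD-C, the top value being HFD-C mouse 6, and its log2 fold change was 0.77 with that mouse and -0.73 without it. The 7 adipocyte markers tested had a median of 0.19 (-0.84 without HFD-C mice 5 and 6), the 10 endothelial markers of -0.01 and the 7 Schwann cell and nerve markers of -0.04.

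The study names 12 genes that it chose by comparing running mice with HFD-C, so their direction is not independent of the HFD-C mice. Of these, 0 were higher and 1, Foxo1, was lower in HFD-C than in NFD-C at the unadjusted limit (8.33%, beside 4.11% of all genes). Of the 12, 11 were below 0, with a median of -0.26. Lars2 had a log2 fold change of -0.80 (-1.97 to 0.38), near those of the rRNA-linked features LOC118568312 (-0.68) and AY036118 (-0.72). It was at 70.9 and 83.5 CPM in HFD-C mice 6 and 5 and 716 to 1674 CPM in the other 10. Xdh, xanthine dehydrogenase, was at -0.41 (-0.97 to 0.16), Fibin at -0.44, Aldh9a1 at -0.35, Aldh1l1 at -0.25, Pik3r1 at -0.23 and Car4 at -0.13. Sesn1 (-0.01, -0.38 to 0.36), Klf10 (0.01, -0.48 to 0.51) and Phyhd1 (-0.05, -0.55 to 0.45) were the nearest to 0. Of the 12 genes, only Foxo1 had an interval that did not include 0.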

How the data were processed

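The authors deposited whole-number read counts per gene and library, without normalization, made from paired-end poly(A) libraries with HISAT2 2.0.5 and featureCounts 1.5.0-p3. The submitters' processing notes name mm10, but the chromosome sequences in the table are those of GRCm39. Of 46893 features, 562 without a gene symbol (0.166 to 0.576% of counts) were left out.

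The 12139 genes whose mean count over the 12 libraries reached 25 were tested with edgeR 4.0.16 (R 4.3.3, TMM, glmQLFTest, two-sided, Benjamini-Hochberg), after a check on simulated data. CPM use TMM library sizes, and means are given ± SD. Transcripts were aligned with Biopython 1.88 from GENCODE M21, whose build differs, so no coordinates were taken from it. The alternatives included DESeq2 1.42.0. Values in all 6 groups come from 1 scaling of the 36 libraries and share control mice, so they were not tested.

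The members and the 43 gene lists (968 of 975 entries found) were chosen with earlier results of these data known. Named genes were the 10 with the smallest p in each direction, in each list the most abundant and the smallest p, the 12 genes the study names and 3 rRNA-linked features. Genes outside this rule, including all other list members at an unadjusted p of 0.05, were picked with their values in view. Some genes that the rule names are not reported here. The sources used here do not describe the NFD-C mice beyond the labels, and p-values measure only the spread between them. Mice carry the numbers 1 to 6 in both groups. Same-numbered mice had a median correlation of their deviations of 0.117, beside 0.0068 for other numbers, and 3 of 6 same-numbered pairs were above 0.1. The numbers have no stated shared origin and were not used as pairs in the main fit. A fit with them as blocks is given below.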

Additional observations from a re-analysis of the deposited data

Results flagged for a closer look

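A mouse stood apart from the other 5 of its diet group, by a gap of over 0.625 of the whole range (Dixon's 95% limit for 6 samples), in 20 of 224 groups examined. That limit gives about 1 in 20, which is 11.2 here, for independent groups with a normal spread. The CPM were not on a log scale and many of the genes vary together, so 20 cannot be read as an excess. HFD-C mouse 1 had the deepest library, with 27846838 counts against 15494606 to 19065358 in the others.

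NFD-C mouse 1 stood above its group for the fibre and metabolic genes Myh7 (415 CPM), Myh2 (3811 CPM), Myh3 (7.47 CPM), Idh2 (278 CPM), Gbe1 (73.5 CPM) and Acacb (464 CPM). HFD-C mouse 6 stood above its group for Gm10076 (169 CPM), Ndufa8 (280 CPM), Scd1 (60.0 CPM), Adipoq (19.2 CPM), Lmod1 (16.4 CPM) and Gm30140 (7.88 CPM). NFD-C mouse 2 was high for Tmem267 (39.4 CPM) and low for Ddit3 (9.63 CPM). NFD-C mouse 4 was high for Gm33770 (1.33 CPM), and NFD-C mouse 6 for Arntl (17.4 CPM) and Klf10 (35.3 CPM). HFD-C mouse 5 was high for Oasl2 (2.18 CPM) and HFD-C mouse 4 for Car4 (11.9 CPM).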

How the results depend on the processing

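No gene passed an adjusted p of 0.05 in edgeR, and 499 did so unadjusted. DESeq2 called 2 genes on the same table (1 of them also past 2-fold), 1 without a minimum count (1) and 1 with the minimum applied afterwards (1). With a covariate for the rRNA-linked share edgeR called 1 (1), ND4L. Unadjusted counts were 912 with DESeq2 and 2165 with edgeR without a minimum count, 858 with the rRNA-linked share and 312 with the slow fibre level as covariates. The counts of 912 and 2165 come from every gene with any count in the 12 libraries. These are more than the 12139 genes behind 499, so those counts cannot be compared directly. Leaving out 1 mouse gave 374 to 774 genes, the highest without NFD-C mouse 1. The settings with the slow fibre level and with the minimum applied afterwards were chosen after seeing the data.

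With mouse number as a replicate block the unadjusted count was 847, with 0 adjusted. The numbers share no stated origin, same-numbered mice correlated in their deviations by -0.118 to 0.580, and 3 of 6 NFD-C and 2 of 6 HFD-C mice were closest to their own number.

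Of 2588 log2 fold changes of 108 genes under the alternatives, 49 in 15 genes changed sign, none of them in a gene at an unadjusted p of 0.05. With the slow fibre level these were Acadvl (-0.015), Myh1 (-0.094), Lpl (-0.26), Atp5b (-0.00063), Myh7 (-0.25), Cd36 (-0.32), Aldoa (0.082) and Slc2a4 (-0.083). With the rRNA-linked share they were Adipoq (-0.41), Pik3r1 (0.044), Acacb (0.053), Phyhd1 (0.13), Klf10 (-0.16) and Sesn1 (0.096). Without HFD-C mice 5 and 6 they were Adipoq (-0.63), Acacb (0.030), Phyhd1 (0.066), Klf10 (-0.013) and Sesn1 (0.041), without the mice numbered 1 Sesn1 (0.053), and with the replicate block Sesn1 (0.020). Over single mice left out, the ranges that crossed 0 were -0.73 to 1.38 for Adipoq, -0.0096 to 0.44 for Cd36, -0.55 to 0.046 for Car4, -0.18 to 0.022 for Aldoa, -0.23 to 0.086 for Phyhd1, -0.10 to 0.27 for Klf10, -0.11 to 0.085 for Sesn1 and -0.033 to 0.048 for Slc2a4. The causes were not tested. Genes of a few CPM, such as Lamc3 and Oasl2, rest on few counts and have wide intervals.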
